A study of Mus musculus with 18 samples.

Results

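Sperm reach the egg membrane only after the zona pellucida has been crossed, and a small set of sperm membrane proteins then allows the gametes to adhere and fuse. In whole mouse testis, RNA of 10 genes of sperm-egg binding and fusion, with relatives not all needed for fusion, was compared between a Taf7l knock-in and the wild type. They were Izumo1, Izumo2, Izumo3, Izumo4, Spaca6, Tmem95, Tmem190, Dcst1, Dcst2 and Zpbp. Each symbol matched 1 row of the mRNA table, so all 10 of 10 were found among its 22298 genes. All 10 also passed the filter on low counts that left 15787 genes to test.

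The tissue was frozen testis of adult C57BL/6 mice. One group carried the wild-type allele of Taf7l, an X-linked gene whose germ-cell protein resembles the TFIID subunit TAF7. The other carried a knock-in allele, and the labels do not spell out the change it makes. Each group had 3 libraries. No label ties a library to an animal, so a p-value here reflects only how far libraries of a genotype spread, which may be technical in part. The series also lists 12 samples of purified pachytene spermatocytes and round spermatids, which were not analysed here. In bulk testis, fewer cells of a type and less RNA per cell cannot be told apart.

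The genes of this set act at different steps. IZUMO1 is exposed on the sperm head after the acrosome, the secretory vesicle that caps the nucleus, has released its content, and there it binds the egg receptor JUNO, the product of Izumo1r. SPACA6, TMEM95 and the DC-STAMP-domain proteins DCST1 and DCST2 are likewise needed in the sperm for fusion with the egg. IZUMO2, IZUMO3 and IZUMO4 are relatives of IZUMO1 that share its extracellular domain. TMEM190 is a small protein of the inner acrosomal membrane, and ZPBP is a protein of the acrosome that binds the zona pellucida and is needed for normal shaping of the sperm head.

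The genes lay on 6 autosomes, and Dcst1 and Dcst2 were neighbours on chromosome 3. In the RefSeq annotation of GRCm38.p6, the assembly known as mm10, the start site used for Dcst1 is position 89365253 on the minus strand. That used for Dcst2 is 89365319 on the plus strand. From these start sites the genes point away from each other. The 65 bases between them (chr3:89365254-89365318, plus strand) are shown because they lie upstream of both start sites. The annotated span of Dcst2 begins further upstream, at 89350417, so these bases lie inside that span. A RefSeq promoter window was matched for 9 of the 10 genes, all but Izumo4. The 250 bases before the start site were searched on both strands for 5 motifs. These were the TATA box (TATAAA), the box named after its letters CCAAT, the GC box (letters GGGCGG), and the full cAMP response element, through which the spermatid activator CREM acts. That element reads TGACGTCA. The last motif was its shorter form, TGACG, which every full element contains. In the sequences shown, capitals mark matches to these motifs, and the gap between the Dcst1 and Dcst2 start sites holds none.
Dcst1-Dcst2 gap: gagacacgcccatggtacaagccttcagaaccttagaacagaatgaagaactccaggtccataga
Tmem190: ctgaagcttttgGGGCGGagcccagctgtt
Izumo1: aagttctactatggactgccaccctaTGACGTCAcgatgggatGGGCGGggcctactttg
The Tmem190 stretch (chr7:4782910-4782939, plus strand) is the end of the window searched and holds the only GC box of that window. The start site used for Tmem190, 4782940, lies inside its annotated span, which begins at 4782549. Only Dcst1 and Izumo1 had a start site at the edge of their span. The other windows thus lie upstream of the start site used, and wholly or partly inside the annotated gene. The Izumo1 stretch (chr7:45621689-45621748, plus strand) holds the one full cAMP response element found in the set, 96 to 89 bases before the start, followed by a GC box. A full element was present in 1 of these 9 windows and in 1.55% of all 32851 promoter windows of the same length. The shorter form was present in 2 of 9, those of Izumo1 and Tmem95, against 17.8% of all windows. The CCAAT motif was in 4 of 9 against 33.8%, the GC box in 3 of 9 against 32.7%, and the TATA box in 0 of 9 against 12.4%. Such matches describe the letters of the window and do not show binding.

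The mRNA libraries held between 17431309 and 21446420 counts. Taf7l itself had counts of 507, 551 and 531 in wild-type testis and 472, 525 and 581 in knock-in testis. Counts per gene do not show which change the allele carries, so this does not check the labels. Germ-cell markers were abundant: the summed level of 16 round spermatid genes lay between 6720 and 7534 CPM in wild-type testis and between 6674 and 7413 in knock-in testis. CPM here are counts relative to the library total after TMM scaling. Wild-type library 2 and knock-in library 1 stood apart in Crisp1 and Adam7, genes typical of the epididymis, the duct beside the testis. Crisp1 had counts of 3, 225 and 3 against 173, 1 and 1, and Adam7 of 0, 41 and 0 against 37, 0 and 0. Other epididymal genes did not all follow. Rnase10 had counts of 180, 168 and 137 against 124, 120 and 120, and Wfdc10 of 105, 121 and 101 against 135, 180 and 170. What set wild-type library 2 and knock-in library 1 apart, and its part in the results, was not tested. Key values are also given without both of these libraries, which leaves 2 of each genotype.

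Of the 10 genes, 1 passed the threshold of 0.05 on the adjusted p (edgeR's quasi-likelihood test, Benjamini-Hochberg over all genes tested), and it was higher in the knock-in. Over all genes tested, 0.982% were called in either direction, and 0.88% were called higher. The median log2 fold change of the set was 0.04, against 0.00 for all genes tested, with a range from -0.12 for Izumo4 to 0.77 for Izumo2. The knock-in and wild-type libraries did not overlap for 2 of the 10 genes, Tmem190 and Izumo2, and 18.5% of all genes tested showed such separation.

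**Figure D1:**
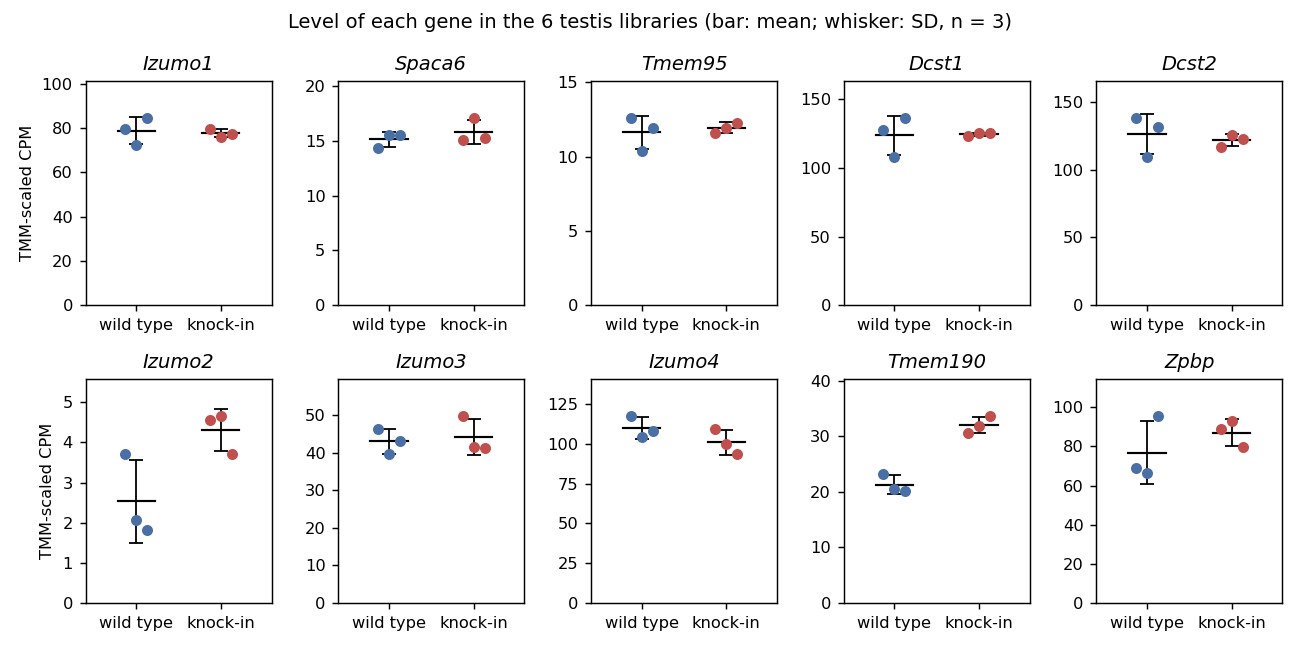
Each panel shows 1 gene, with TMM-scaled CPM on the y axis (from 0) and 1 point for each library of wild-type (blue) and knock-in (red) testis. Lines and whiskers give the mean and SD of 3 libraries, and the points of the genotypes are separated for Tmem190, all but touch for Izumo2 and overlap for the other genes.

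Tmem190 (ENSMUSG00000013091, chromosome 7 from 4782549 to 4784341) had counts of 426, 388 and 356 in wild-type testis and of 557, 616 and 715 in knock-in testis. The lowest knock-in library was thus above the highest wild-type library, and this also held after scaling, at 30.6 against 23.3 CPM. The level rose from 21.3 ± 1.68 to 32.1 ± 1.51 CPM (mean ± SD, n = 3 each). By edgeR this was a log2 difference of 0.59 ± 0.09 (SE), with an adjusted p of 0.0208. The knock-in was 50.3% higher, and the 95% interval of the ratio ran from 1.30 to 1.73. The authors' deposited table lists Tmem190 with a log2 ratio of 0.58 and an adjusted p of 0.000142. Relative to Izumo1 in the same library, Tmem190 stood at 0.74, 0.718 and 0.607 in wild-type testis and at 0.974, 1.06 and 1.11 in knock-in testis, as ratios of FPKM, counts per length and depth. A wild-type testis therefore held less Tmem190 than Izumo1 RNA per length in each library, and the knock-in libraries lay near parity.

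The call of Tmem190 depended on a correction for gene length and on which libraries entered the test. With a smooth trend of fold change on gene length removed, the log2 fold change was 0.42 and the gene was not called (edgeR, adjusted p = 0.0682). Tmem190 is short: its length implied by counts and FPKM was 762 bases, shorter than all but 1.94% of genes tested. Without wild-type library 2 or 3 or knock-in library 3 the log2 fold change was 0.56, 0.55 and 0.55, and the adjusted p was 0.0928, 0.101 and 0.124, while leaving out any of the other 3 libraries kept the call. Without wild-type library 2 and knock-in library 1 together, the log2 fold change was 0.59 ± 0.12 and the gene was not called (edgeR, adjusted p = 0.107). Il11, whose annotated span overlaps that of Tmem190, stood at a log2 difference of -0.06 ± 0.20 (SE; adjusted p = 0.938 by edgeR).

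**Figure D2:**
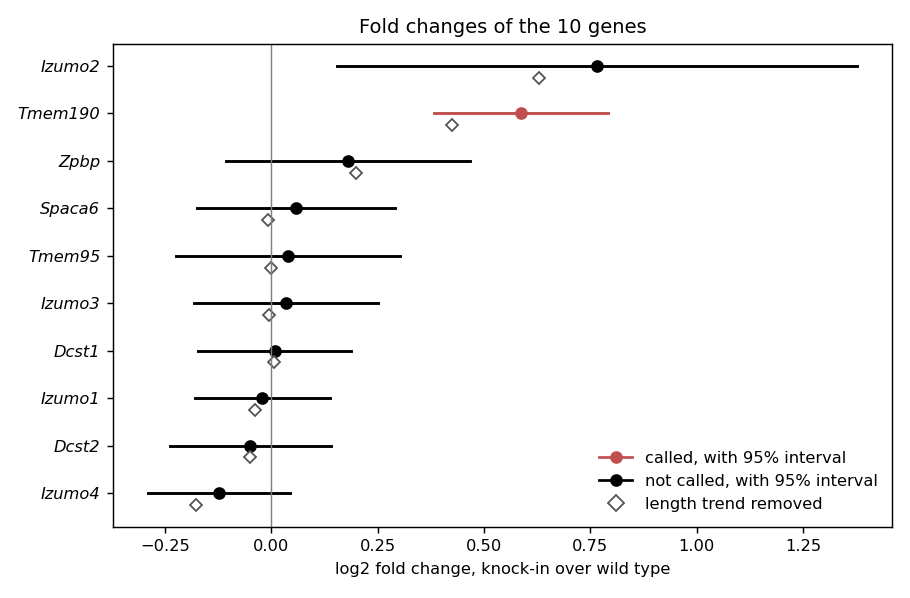
Log2 fold change of each gene on the x axis, knock-in over wild type, with its 95% interval from edgeR; the called gene is red. Open diamonds give the value after the trend with gene length was removed, which took Tmem190 from 0.59 to 0.42 and Izumo2 from 0.77 to 0.63.

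Izumo2 (ENSMUSG00000066500, chromosome 7 from 44708698 to 44719848) had the highest fold change of the set and the fewest counts. Its counts were 68, 39 and 32 for the wild type against 83, 90 and 79 for the knock-in. After scaling, wild-type library 1 stood at 3.71 CPM and the lowest knock-in library at 3.72, so the groups separated by almost nothing, while wild-type libraries 2 and 3 stood at 2.06 and 1.82. The log2 fold change was 0.77 ± 0.27 (SE; 95% interval 0.15 to 1.38). The test was not passed, with an adjusted p of 0.276 by edgeR. Without wild-type library 1 the value was 1.14 and again not called (adjusted p = 0.0893 by edgeR). DESeq2 returned no adjusted p for Izumo2. The authors' deposited table lists it with a log2 ratio of 0.81 and an adjusted p of 1. Izumo2 was also the second shortest gene of the set, with an implied length of 850 bases, so the genes with the highest fold changes were the shortest ones.

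**Figure D3:**
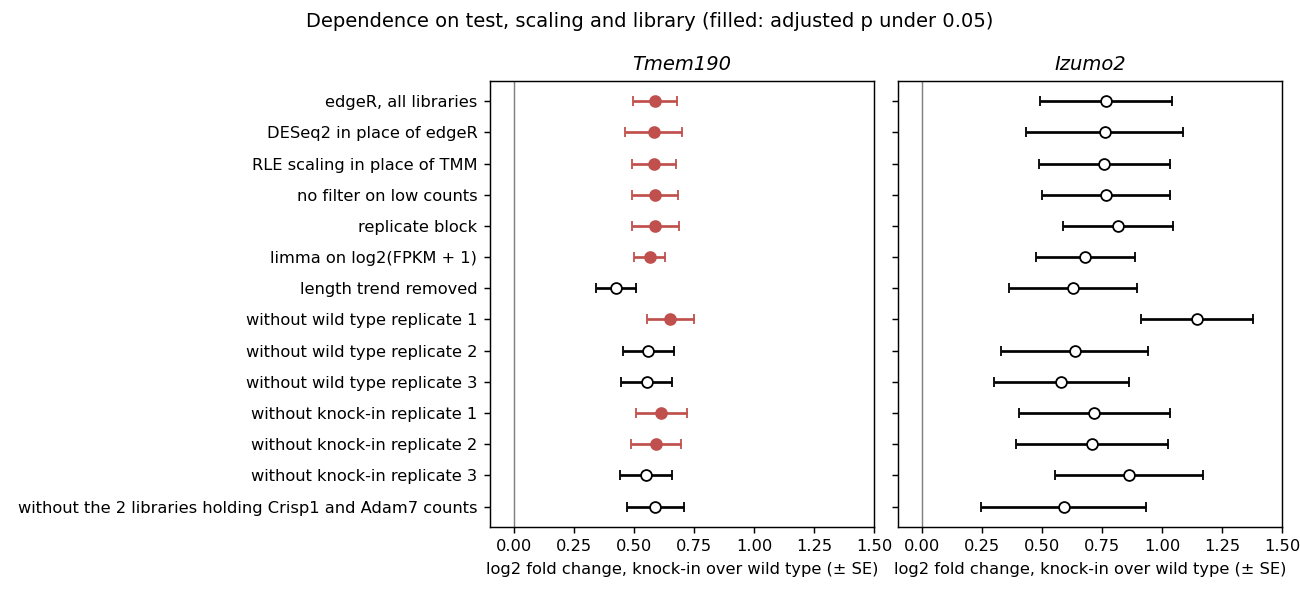
Log2 fold change ± SE of Tmem190 (left) and Izumo2 (right) on the x axis, under each test, scaling or left-out library listed on the y axis; filled red points were called. Tmem190 ran from 0.42 to 0.65 and was called in 8 of 13 alternatives, and Izumo2 ran from 0.58 to 1.14 and was called in none of them (DESeq2 gave it no adjusted p).

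The genes known to be required for fusion with the egg membrane were not called. Izumo1 (ENSMUSG00000064158, chromosome 7 from 45621811 to 45627242) was at 79.7, 72.3 and 84.5 CPM in wild-type testis and 79.7, 76.1 and 77.2 in knock-in testis. All 3 knock-in libraries lay inside the wild-type range, and the log2 fold change was -0.02 ± 0.07 (SE; edgeR, adjusted p = 0.94), with an interval from 0.883-fold to 1.10-fold. Spaca6 (ENSMUSG00000080316, chromosome 17 from 17826085 to 17843010), whose protein forms a complex with IZUMO1 on sperm, was at 14.4, 15.6 and 15.6 CPM in wild-type testis and 15.1, 17.1 and 15.2 in knock-in testis. Its log2 fold change was 0.06 ± 0.10, and the interval lay between 0.886-fold and 1.22-fold. Tmem95 (ENSMUSG00000094845, chromosome 11 from 69876054 to 69878171) was at 12.6, 10.3 and 11.9 CPM against 11.6, 11.9 and 12.3. Its log2 fold change was 0.04 ± 0.12, with an interval from 0.856-fold to 1.23-fold, again with overlapping libraries.

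Dcst1 (ENSMUSG00000042672) and Dcst2 (ENSMUSG00000109293) were measured at nearly the same level in every library. Dcst1 had counts of 2330, 2050 and 2392 in wild-type testis and 2238, 2421 and 2657 in knock-in testis. Dcst2 was counted 2525, 2075 and 2313 times against 2128, 2435 and 2615. Over the 6 libraries this came to 14088 counts of Dcst1 and 14091 of Dcst2. The ratio of Dcst1 to Dcst2 counts was 0.982 ± 0.0560 in wild-type testis and 1.02 ± 0.0290 in knock-in testis (SD, n = 3 each), and both genes were lowest in wild-type library 2. Log2 fold changes were 0.01 ± 0.08 for Dcst1 and -0.05 ± 0.08 for Dcst2 (SE; edgeR, adjusted p = 0.981 and 0.87). The annotated span of Dcst2 in RefSeq overlaps that of Dcst1, which lies on the opposite strand, and whether reads were counted by strand is not given in the sources used here, so the separation of the pair is uncertain.

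Among the relatives of Izumo1, Izumo3 (ENSMUSG00000028533, chromosome 4 from 92144318 to 92147225) was at 46.5, 39.8 and 43.1 CPM in wild-type testis and 49.8, 41.6 and 41.2 in knock-in testis, with overlapping libraries. Its log2 fold change was 0.03 ± 0.10 (SE; edgeR, adjusted p = 0.926). Izumo4 (ENSMUSG00000055862, chromosome 10 from 80702015 to 80705382), which encodes the form without a membrane anchor, was at 117, 104 and 108 CPM against 109, 100.1 and 93.7. The groups overlapped and its log2 fold change of -0.12 ± 0.07 was the lowest of the set (edgeR, adjusted p = 0.545), with an interval from 0.818-fold to 1.03-fold. On the deposited FPKM scale Izumo4 stood at 80.6, 77.6 and 78.7 against 75.6, 72.2 and 63.0, and there the groups did not overlap.

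Zpbp (ENSMUSG00000020193, chromosome 11 from 11279624 to 11464223) showed the widest relative spread between wild-type libraries after Izumo2. It stood at 68.9, 66.3 and 95.5 CPM in wild-type testis and at 88.8, 92.8 and 79.8 in knock-in testis. Wild-type library 3 was the highest of all 6 and the other wild-type libraries were the lowest, so the groups overlapped through that library. The log2 fold change was 0.18 ± 0.13 (SE; edgeR, adjusted p = 0.621), and it moved with the wild-type library left out: it was 0.37 without library 3, 0.10 without library 1 and 0.08 without library 2 (adjusted p = 0.18, 0.852 and 0.865). Without wild-type library 2 and knock-in library 1 together it was 0.07 (adjusted p = 0.888). Spata48, whose annotated span overlaps that of Zpbp, was likewise high in wild-type library 3, at 21.4 CPM against 18.0 and 15.4, with 21.7, 18.9 and 20.1 in the knock-in.

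Across the 8 genes other than Tmem190 and Izumo2, log2 fold changes ran from -0.12 to 0.18, and the 95% intervals lay between 0.818-fold and 1.38-fold. Without wild-type library 2 and knock-in library 1, the same 8 genes ran from -0.22 for Izumo4 to 0.11 for Spaca6, and none was called. Among the wild-type libraries, library 2, the one with high Crisp1 and Adam7 counts, had the lowest CPM for 7 of the 10 genes. Summed over the set, the libraries stood at 632, 549 and 648 CPM in wild-type testis and at 630, 627 and 605 in knock-in testis, so the groups overlapped.

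Levels between genes were compared per length, as deposited FPKM. Izumo4 was the most abundant at 79.0 ± 1.49 FPKM in the wild type (SD, n = 3) and Izumo2 the least at 2.91 ± 1.19. Dcst2, Dcst1 and Izumo1 followed Izumo4 at 42.8, 41.0 and 40.9 FPKM with overlapping ranges, so their order was not resolved. Tmem190 at 28.1 and Izumo3 at 27.4 overlapped as well. Below them Zpbp at 14.1, Spaca6 at 11.6 and Tmem95 at 7.54 each had ranges that did not overlap their neighbours. In the knock-in the order was the same except for Tmem190, which at 42.0 ± 2.32 FPKM overlapped Dcst2, Dcst1 and Izumo1, the last at 40.1 ± 0.442. The length implied by counts and FPKM was not constant for Spaca6, at 0.953 to 1.07 times its median over libraries, so its FPKM and counts do not keep a fixed ratio, and Izumo2 and Izumo4 varied in the same way to a lesser extent.

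**Figure D4:**
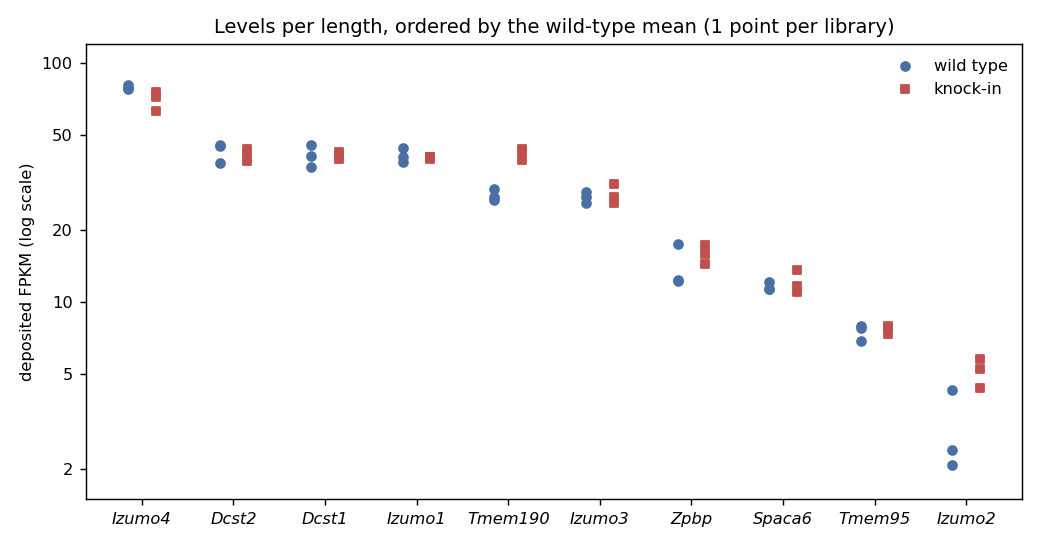
Deposited FPKM of each gene in each library on a logarithmic y axis, with genes on the x axis ordered by their wild-type mean. Izumo4 is highest near 79.0 FPKM, Izumo2 is lowest, and Tmem190 moves from the level of Izumo3 in the wild type (circles) to that of Dcst1 and Izumo1 in the knock-in (squares).

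Other readouts of these genes came from the noncoding and circular RNA tables. Of the noncoding transcripts, 3 carried a symbol of the set, and 1 of them passed the filter, a Spaca6 transcript (ENSMUST00000012759) counted 18, 10 and 12 times in wild-type testis and 2, 21 and 3 times in knock-in testis. Knock-in library 2 was the highest of the 6 and the other knock-in libraries the lowest, and the transcript was not called (edgeR, adjusted p = 0.862). Over all 9301 noncoding transcripts tested, 0.0968% were called. Another Spaca6 transcript had 6 counts, all in wild-type library 1, and a Dcst1 transcript was listed at 0 in all libraries.

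Circular RNAs, closed loops formed when a splice donor joins an upstream acceptor, were listed for 3 genes of the set. Zpbp gave 5 exonic circles with 238 counts in all, rank 58 among 3075 host genes. Of these circles, 4 shared the edge at chromosome 11 position 11418287, which on this minus-strand gene is the upstream end. The most abundant (chr11:11403981-11418287, spliced length 572 bases) had counts of 32, 29 and 26 in wild-type testis and 15, 33 and 29 in knock-in testis, with overlapping groups (log2 -0.35 ± 0.28 SE; edgeR, adjusted p = 0.979). The circle of 750 bases (chr11:11352522-11418287) was counted 10, 3 and 6 times against 2, 1 and 4, with overlap (log2 -1.56 ± 0.81; adjusted p = 0.979). The circle of 255 bases was at 0 in wild-type testis and at 5, 0 and 2 in knock-in testis, in too few libraries to pass the filter.

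Per 1000 linear Zpbp counts there were 39.7, 29.5 and 21.4 circular counts in wild-type testis and 18.6, 21.7 and 27.1 in knock-in testis, which overlapped. Izumo3 was assigned 4 circles antisense to it with 22 counts in all, and Dcst1 had 1 exonic circle with 2 counts. Of the 10 circles of the set, 7 were tested and 0 were called by edgeR or by DESeq2, with 0 at an unadjusted p under 0.05 by either. Over all 3887 circles tested by edgeR 0% were called and 4.91% had an unadjusted p under 0.05.

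**Figure D5:**
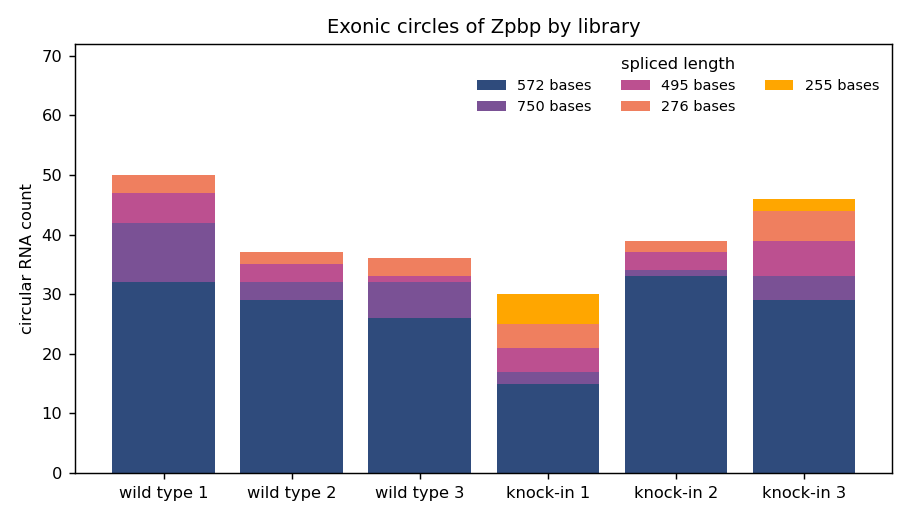
Counts of the 5 exonic Zpbp circles in each library, stacked from 0 on the y axis and coloured by spliced length. Totals run from 36 to 50 counts in wild-type testis and from 30 to 46 in knock-in testis, and the circle of 572 bases makes up the largest part in each library.

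Further sperm factors of fertilization were described by gene lists. Of 3 other genes needed for fusion, none was called by edgeR and DESeq2 also called none. An unadjusted p under 0.05 was found for 1 of them, against 12.9% of all genes tested. Llcfc1, which encodes SOF1, was at 238 ± 6.39 FPKM in wild-type testis against 209 ± 11.2 (log2 -0.18 ± 0.07 SE; adjusted p = 0.318 by edgeR). The gene 4930451I11Rik, which encodes FIMP, had a log2 fold change of -0.10 ± 0.10, and Tmem81, whose product joins IZUMO1 and SPACA6, of 0.13 ± 0.11. On the egg side, Izumo1r had 0 counts in all 6 libraries, which allows up to 0.0264 CPM by counting error, and Zp1, Zp2, Zp3 and Astl were below the filter. Cd9 and Cd81, which somatic cells also express, were at 3.37 ± 0.171 and 66.5 ± 13.5 FPKM in the wild type, with log2 fold changes of -0.14 ± 0.19 and 0.04 ± 0.10, and neither was called by edgeR or DESeq2, with 0 of them at an unadjusted p under 0.05.

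Of 19 genes of zona binding, acrosome content and cumulus passage, 1 was called (Spaca4), 5 had an unadjusted p under 0.05, and the list median was 0.05. Over all genes tested, 0.982% were called by edgeR and 12.9% had an unadjusted p under 0.05. Spaca4, a surface protein that helps sperm cross the zona, rose from 67.3 ± 3.42 to 87.8 ± 2.99 FPKM (SD, n = 3 each; log2 0.39 ± 0.06 SE; edgeR, adjusted p = 0.026). It is short too, at 914 implied bases, and with the length trend removed its log2 fold change was 0.26 and it was not called (adjusted p = 0.147). Its adjusted p was 0.0499 without knock-in library 2 and from 0.0542 to 0.135 when another library was left out, and 0.145 without wild-type library 2 and knock-in library 1 together. DESeq2 called 4 genes of this list (Spaca4, Spaca7, Acrbp and Acr), against 2.89% of all genes tested. Of 19 genes that mature or guard ADAM3 and the sperm surface, none was called by edgeR. In this list 3 genes had an unadjusted p under 0.05, against 12.9% of all genes tested, and DESeq2 called 1 (Ly6k), against 2.89%. The list median was -0.02. Adam3 itself, the surface protein needed for binding to the zona, was at 463 ± 7.67 and 452 ± 53.8 FPKM, and Lypd4 at 323 ± 4.08 and 329 ± 9.69.

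Markers of stages and of other cells were read beside these values, and their part in the rise of Tmem190 was not tested. Of 16 elongating spermatid genes 3 were called, all higher: Prm2 (log2 0.53 ± 0.09 SE), Smcp (0.40 ± 0.07) and H2bl1 (0.69 ± 0.12), with implied lengths of 804, 1113 and 622 bases. At an unadjusted p under 0.05 the list held 9 genes, and DESeq2 called 6 (also Tnp1, Tnp2 and Tekt4). Over all genes tested, edgeR called 0.982%, 12.9% had an unadjusted p under 0.05 and DESeq2 called 2.89%. The list's most abundant gene per length, the protamine Prm1, stood lower in the knock-in without passing the test, at 6362 and 5108 FPKM (log2 -0.31 ± 0.12 SE; edgeR, adjusted p = 0.303), and 4 of the 16 genes had values below 0. That list had a median of 0.16, and its summed level overlapped between genotypes, from 19877 to 22632 CPM in wild-type testis and from 19656 to 23415 in knock-in testis. None was called of 16 round spermatid genes (median 0.03; Gapdhs 0.06 ± 0.07, Odf1 -0.03 ± 0.06), of 24 genes of meiotic prophase (median -0.05; Ldhc -0.14 ± 0.07, Hspa2 0.14 ± 0.06) or of 11 tested of 12 spermatogonial genes (median 0.03; Dmrtb1 0.17 ± 0.07, Uchl1 -0.17 ± 0.07). At an unadjusted p under 0.05 these 3 lists held 5, 4 and 3 genes, against 12.9% of all genes tested. DESeq2 called 1, 1 and 0 of them (Cst13 and Syce3), against 2.89%. The summed spermatogonial level did not overlap, from 629.9 to 670 CPM in wild-type testis and from 694 to 714 in the knock-in, but Dmrtb1 made up most of it. The other 11 genes of that list summed to 195 to 207 CPM and 177 to 226 CPM, which overlapped. Gapdhs belongs to both spermatid lists.

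Somatic and epididymal lists held no gene called by edgeR either. Medians were -0.01 for 12 Sertoli cell genes (Clu 0.12 ± 0.10, Amhr2 -0.04 ± 0.12), 0.03 for 9 Leydig cell genes (Insl3 0.03 ± 0.09, Cyp17a1 0.23 ± 0.10) and -0.04 for 8 macrophage and leukocyte genes (Lyz2 -0.14 ± 0.16, C1qb -0.13 ± 0.18). The median was 0.16 for 7 endothelial and blood genes (Hbb-bs 0.16 ± 0.26, Alas2 -0.16 ± 0.08). It was -0.32 for the 3 of 8 epididymal genes that were tested, among them Wfdc10 (0.47 ± 0.15) and Rnase10 (-0.51 ± 0.15). The 7 peritubular myoid genes had a median of 0.25 (Actg2 0.04 ± 0.06, Acta2 0.17 ± 0.07). All 7 lay above 0, with Actg2 the lowest and Des the highest at 0.46 ± 0.14. Their summed level did not overlap, from 543 to 569 CPM in wild-type testis and from 601 to 620 in knock-in testis. Actg2 made up most of that sum, with means of 351 CPM in wild-type and 362 CPM in knock-in testis. In the order the lists were given, 0, 2, 0, 0, 2 and 4 genes had an unadjusted p under 0.05, against 12.9% of all genes tested. DESeq2 called 0, 1, 0, 0, 0 and 2 (Cyp11a1, Myl9 and Myh11), against 2.89% of all genes tested. Of the epididymal genes, Cuzd1 was also highest in wild-type library 2 and knock-in library 1, with counts of 73, 243 and 55 against 169, 65 and 73, while Lcn5 and Spag11a had no count in any library.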

How the data were processed

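RNA of 6 whole-testis libraries, 3 wild-type and 3 Taf7l knock-in, was read from 3 deposited tables. Per the labels' protocols, total RNA extracted with Trizol was prepared with a kit that keeps strand, and per the submitters' processing notes the build was mm10. Per the file headers, the authors deposited counts per gene, noncoding transcript and circle, FPKM for the linear RNAs and RPM for circles, with a mean per genotype (a signal for circles), a log2 ratio of the means and p-values, raw and adjusted. Which aligner, counter, strand setting and test the authors used is not given in the sources used here.

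Counts were tested with edgeR 4.0.16 (quasi-likelihood, TMM, R 4.3.3), two-sided, with Benjamini-Hochberg adjustment over all features of a table and calls at 0.05. Genes were kept by filterByExpr (minimum count 10, minimum total 15), and circles when above 0 in at least 3 libraries. SE was derived from the F statistic. Length was implied by counts and FPKM relative to the mRNA total, and its trend was removed per library with a lowess offset (span 0.3). DESeq2 1.42.0, RLE scaling, no filter, limma 3.58.1 on log2(FPKM + 1), the replicate number as a block and leaving out each library were alternatives. A fit without both libraries that held high Crisp1 and Adam7 counts was added after seeing the data. The fit was checked on simulated counts. In the mRNA table the fit called 23 of 65 simulated 1.5-fold changes (35.4%) and 54 of 66 simulated 2-fold changes (81.8%). Of 66 simulated 4-fold changes it called 65. It also made 17 calls on genes simulated without a change, so some calls can be false. For noncoding transcripts it called 3.23% of 1.5-fold and 13.6% of 2-fold changes, and for circles 0% of either. A gene or circle that was not called may therefore still differ by such amounts. Within a genotype no library repeated another: chi-square per degree of freedom lay between 5.54 and 10.8. Pairs of a wild-type and a knock-in library were not compared in this way.

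All 10 genes were named, and of the other 14 lists every called gene or the 2 with the highest FPKM. Tmem81, Prm1, Cuzd1 and the genes called by DESeq2 alone were added after the values were seen. So were the genes below the filter other than Nanos3 and Defb42. Spata48 and Il11, as overlapping neighbours, and the Izumo1 promoter stretch were also added then. The genes and lists were chosen with earlier results of these data known. Promoter sequences are from RefSeq (GRCm38.p6). The common biological coefficient of variation was 11.1% in the mRNA table, against 26.4% for noncoding transcripts and 43.4% for circles. Intervals on counts of 0 cover counting error only.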

Additional observations from a re-analysis of the deposited data

How the results depend on the processing

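Over all genes, 155 were called; DESeq2 gave 456, limma on FPKM 263, the fit with the length trend removed 84, RLE scaling 136 and no filter on low counts 175. Leaving out 1 library gave 11 to 125 calls. Dropping a wild-type library (1, 2, 3) left 74, 32 and 20, and dropping a knock-in library (in the same order) left 108, 125 and 11. Without wild-type library 2 and knock-in library 1 together, chosen after seeing the data, there were 39 calls over all genes and 0 in the set, and Izumo3, Tmem95 and Dcst1 changed sign to -0.12, -0.018 and -0.075. Of the 10 genes of the set, 1 was called (Tmem190), 0 with the length trend removed and 0 to 1 with a library left out (0 without wild-type library 2 or 3 or knock-in library 3), and in the other alternatives it was again Tmem190 alone. Noncoding calls went from 9 to 110 with DESeq2, 129 without the filter, 2 with the replicate block and 6 to 15 with a library left out, and circles of the set had 0 calls in every alternative run. Izumo2, Izumo4 and Zpbp kept their sign in all 13 alternatives and Tmem190 did too, with Zpbp from 0.07 to 0.37. The remaining genes, none called in any alternative, changed sign around 0. With the length trend removed Izumo3 was at -0.0045, Spaca6 at -0.0075 and Tmem95 at -0.0017; with a library left out the lowest and highest values were -0.063 and 0.089 for Izumo3, -0.00047 and 0.085 for Spaca6, -0.038 and 0.096 for Tmem95, -0.079 and 0.032 for Izumo1, -0.080 and 0.081 for Dcst1 and -0.14 and 0.015 for Dcst2. The cause was not tested. Same-numbered libraries of the genotypes had correlated deviations of 0.14, 0.11 and 0.01, and not every library correlated best with its own number, so the numbers are not taken as pairs; the replicate block gave 178 calls over all genes and a log2 fold change of 0.59 for Tmem190 (edgeR, adjusted p = 0.0362). Izumo2 had 391 counts over all libraries. Its wild-type CPM had an SD of 40.8% of the mean, against 12.4% for counting error at its mean count.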
